A study of Mus musculus with 24 samples.

Results

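Tspan4, Nav2, Tln2, Fosl2, Psen2, Tnxb, Slc25a25 and Gas6 are 8 of the 19804 loci listed in the deposited tables of a mouse liver RNA sequencing study, taken by symbol because atorvastatin moved their RNA in opposite directions, or in 1 genotype more than in the other, in PXR knockout (PXRKO) and wild-type (WT) mice. The values that chose them were the ratios of atorvastatin to vehicle in the 2 genotypes. Those ratios and the 4 groups behind them are therefore described here and not tested. All 8 were listed in PXRKO atorvastatin, PXRKO vehicle, WT atorvastatin, WT PCN and WT vehicle, and 6 of 8 in WT pravastatin, where Tspan4 and Gas6 were not listed.

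Liver RNA of 24 male mice was sequenced as stranded total RNA libraries, 4 mice in each of 6 groups. The groups were PXRKO mice (PXR knockout on C57Bl/6N, 20 weeks old) on atorvastatin at 10 mg/kg or on vehicle, and WT mice (C57Bl/6N, 19 to 20 weeks old) on atorvastatin at 10 mg/kg, PCN (pregnenolone 16α-carbonitrile) at 100 mg/kg, pravastatin at 10 mg/kg or vehicle, which was distilled water. Every group was dosed by gavage over 4 days and then fasted for 12 h, so all levels below are those of fasted liver. The PXRKO mice were dosed in an experiment of their own, apart from the WT mice, so in any value that sets one genotype against the other the effects of genotype and of experiment cannot be told apart. Each title carries its own animal number, which makes each library a separate animal.

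PXR, encoded by Nr1i2, is a nuclear receptor that binds drugs and steroids in liver cells and switches on genes of drug oxidation, conjugation and transport. PCN is the standard agonist of mouse PXR, while atorvastatin and pravastatin block HMG-CoA reductase and so lower cholesterol synthesis. Atorvastatin is also known as a ligand of human PXR. The 8 genes are not classical PXR targets: they encode a secreted ligand (Gas6), proteins of the membrane, matrix and cytoskeleton (Tspan4, Tnxb, Tln2, Nav2), a membrane protease (Psen2), a transcription factor (Fosl2) and a mitochondrial carrier (Slc25a25).

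The RefSeq promoters of 7 of the 8 genes, all but Tln2 (build GRCm38.p6, 250 bases before each annotated start, 12 windows in all), were searched for motifs of regulators that act in fasted or drug-treated liver, and the stretches that held one are shown so that the genes can be told apart by them. The motifs were the cAMP response element TGACGTCA, the AP-1 site TGANTCA, the E-box CACGTG, the GC box GGGCGG and the direct and everted repeats of the PXR half-site, read on both strands, and no hit overlapped another in these windows. The stretches below run 5′ to 3′ along the gene, with the motif in capitals.
Slc25a25 (chr2:32424179-32424246, minus strand, cAMP response element): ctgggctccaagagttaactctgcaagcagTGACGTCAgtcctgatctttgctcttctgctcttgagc
Tnxb (chr17:34670450-34670516, plus strand, AP-1 site): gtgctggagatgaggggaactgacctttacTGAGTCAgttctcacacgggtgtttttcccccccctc
Tspan4 (chr7:141476299-141476364, plus strand, E-box): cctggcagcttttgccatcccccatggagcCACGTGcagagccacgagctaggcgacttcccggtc
Psen2 (chr1:180245951-180245989, minus strand, E-box): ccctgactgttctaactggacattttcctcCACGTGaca
The Slc25a25 element lay 150 to 143 bases before the start, the Tnxb site 55 to 49, the Tspan4 E-box 51 to 46 and the Psen2 E-box 9 to 4. Slc25a25, Tspan4 and Psen2 had more than 1 annotated start, and their motif stood before an inner one. Over all 32851 windows, the cAMP response element was in 1.55%, the AP-1 site in 6.75% and the E-box in 6.02%. The GC box was in 7 of the 12 windows (6 of the 7 genes searched, all but Tnxb), against 32.7% of all windows. Neither PXR repeat was found in any of the 32851 windows with exact letters, so that search carried no information.

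Levels are normalised read counts, that is, raw counts divided by each library's size factor, on 1 scale set across separately normalised tables through the groups they share. Library totals were 14.7, 8.75, 8.16 and 16.3 M counts (M, mega) in PCN and 11.2, 24.6, 6.64 and 17.0 M in WT vehicle. The tables of the other groups hold selected genes only, and their size factors, which scale with depth, were 0.636 to 1.13 in PXRKO atorvastatin, 0.771 to 1.28 in PXRKO vehicle, 1.03 to 1.43 in WT atorvastatin, 1.57 to 1.82 in pravastatin and 0.543 to 2.02 in WT vehicle. The 8 genes had 108 to 6095 raw counts in a library. Nr1i2, the targeted gene, had 398 to 659 normalised counts in the 8 PXRKO libraries and 1069 to 1665 in the 12 WT libraries that list it, with no overlap. Reads from exons outside the deleted part can remain in a gene count, so this checks the label only in part.

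In PXRKO liver, atorvastatin and vehicle libraries overlapped for all 8 genes. In WT liver, all 4 atorvastatin libraries lay above all 4 vehicle libraries for Tnxb, Tspan4, Fosl2, Gas6 and Slc25a25, and below them for Nav2, Tln2 and Psen2. Atorvastatin and vehicle means stood in the opposite order in PXRKO and in WT for 7 of the 8, and Tnxb was close to level in PXRKO. As folds of the vehicle mean, atorvastatin stood at 1.06 (Tnxb), 0.813 (Tspan4), 0.786 (Fosl2), 0.708 (Gas6), 0.642 (Slc25a25), 1.16 (Nav2), 1.22 (Tln2) and 1.07 (Psen2) in PXRKO. The same folds in WT were 2.70 (Tnxb), 2.03 (Tspan4), 1.68 (Fosl2), 1.58 (Gas6), 1.54 (Slc25a25), 0.605 (Nav2), 0.699 (Tln2) and 0.723 (Psen2). Among 324 genes with values in all 4 groups and a mean of at least 50 normalised counts, the atorvastatin and vehicle libraries did not overlap for 18.5% in PXRKO and for 38.3% in WT, and the 2 ratios had opposite signs for 88 (27.2%). Those 324 were listed because some comparison selected them, so they do not stand for the whole transcriptome. Since the 8 genes were chosen on these ratios, nothing is read from their counts.

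**Figure D1:**
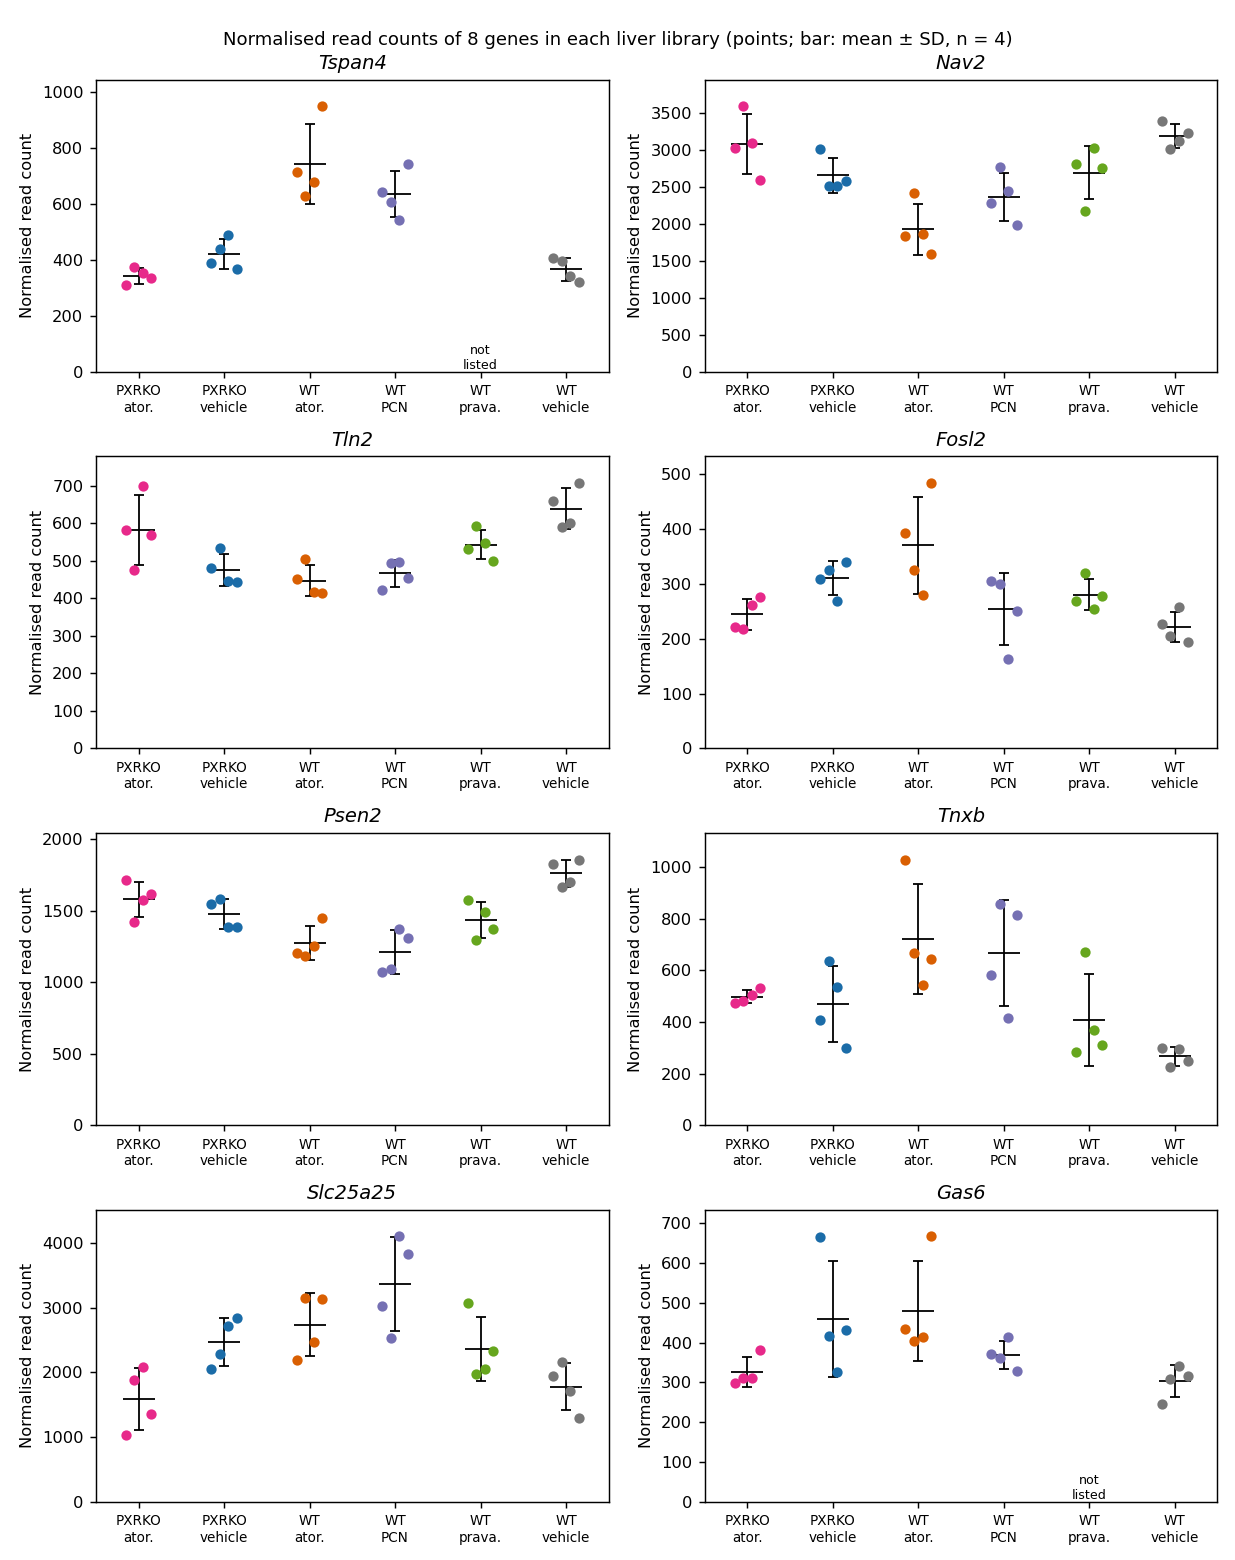
Normalised read count (y axis, from 0) of each gene in each library (points) by group (x axis), with mean ± SD of 4 libraries as black bars; ator. is atorvastatin and prava. is pravastatin. For Tspan4, the 4 PXRKO atorvastatin points lie between 308 and 373 and the 4 PXRKO vehicle points between 368 and 488, while the 4 WT atorvastatin points lie between 629 and 948 and the 4 WT vehicle points between 319 and 405.

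Gas6 (chr8:13465374-13494490, minus strand, build GRCm38) encodes a vitamin K-dependent secreted ligand of the TAM receptor kinases Axl, Mertk and Tyro3, which act in the clearance of dying cells. Gas6 had 299.5, 309.8, 311 and 382 normalised counts in PXRKO atorvastatin libraries, against 666, 418, 325 and 430.4 in PXRKO vehicle libraries. In WT liver it had 433, 404, 414 and 667 in atorvastatin libraries, against 246, 308, 341 and 315 in vehicle libraries. In WT liver every atorvastatin library was above the highest vehicle library, and library 4 stood far above the other 3. In PXRKO liver the groups overlapped, and vehicle library 1 was the highest. Atorvastatin over vehicle came to a log2 ratio of −0.50 ± 0.24 in PXRKO and 0.66 ± 0.21 in WT (SE, n = 4 and 4), and their difference, PXRKO minus WT, was −1.16 ± 0.32. Without PXRKO vehicle library 1 the difference was −0.93, the smallest of the values with 1 library left out. Less RNA per cell and fewer cells of a type cannot be told apart in whole liver, which bears on this gene and on the others below.

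Tspan4 (chr7:141475240-141493427, plus strand) encodes a tetraspanin, a membrane protein that spans the membrane several times, known for its place on migrasomes and in integrin-rich membrane patches. Normalised counts of Tspan4 were 308, 373, 351 and 334 in PXRKO atorvastatin libraries, against 388, 436, 488 and 368 in PXRKO vehicle libraries. In WT mice they were 712, 629, 677 and 948 in atorvastatin libraries, against 405, 395, 343 and 319 in vehicle libraries. The WT groups were far apart, with the lowest atorvastatin library well above the highest vehicle library. In PXRKO liver, the lowest vehicle library fell inside the atorvastatin range and the other 3 lay above it. Group means gave log2 ratios of atorvastatin to vehicle of −0.30 ± 0.11 in PXRKO and 1.02 ± 0.16 in WT (SE, n = 4 and 4), and PXRKO minus WT was −1.32 ± 0.19. This was the largest difference of the 324 genes relative to its standard error, and the 11th by size. Its exons overlap those of Chid1 on the other strand over 13.4% of their length, and the sources used here do not give how strand was counted.

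Tnxb (chr17:34670535-34719815, plus strand) encodes tenascin-X, a large extracellular matrix glycoprotein that binds collagen fibrils, and is the gene with the AP-1 motif printed above. Tnxb had 475, 483, 505 and 531 normalised counts in PXRKO atorvastatin libraries, against 406, 635, 535 and 301 in PXRKO vehicle libraries. In WT liver it had 1029.7, 666, 542 and 643 in atorvastatin libraries, against 299, 224, 295 and 249 in vehicle libraries. WT atorvastatin libraries were all above the highest WT vehicle library, with library 1 far ahead. PXRKO atorvastatin libraries all fell inside the range of PXRKO vehicle libraries. The log2 ratio of atorvastatin to vehicle means was 0.09 ± 0.23 in PXRKO and 1.43 ± 0.24 in WT (SE, 4 and 4 libraries each), a PXRKO minus WT difference of −1.35 ± 0.33. Tnxb was the member with ratios of the same sign in both genotypes. The 4 PXRKO atorvastatin libraries lay close together, with a coefficient of variation of 5.12%, against 31.2% in PXRKO vehicle and 29.6% in WT atorvastatin.

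Tln2 (chr9:67217087-67559703, minus strand) encodes talin-2, which links integrins to the actin cytoskeleton. Normalised counts of Tln2 were 584, 475, 701 and 569.6 in PXRKO atorvastatin libraries, against 480.1, 535, 445 and 443 in PXRKO vehicle libraries. In WT mice they were 451, 505, 418 and 415 in atorvastatin libraries, against 659, 591, 601 and 708 in vehicle libraries. WT atorvastatin libraries were all below the WT vehicle libraries. In PXRKO liver 3 of 4 atorvastatin libraries were above the highest vehicle library, and library 2 fell inside the vehicle range. Atorvastatin over vehicle came to a log2 ratio of 0.29 ± 0.13 in PXRKO and −0.52 ± 0.09 in WT (SE, n = 4 and 4), and their difference, PXRKO minus WT, was 0.81 ± 0.16. The 3 genes lower with atorvastatin in WT had smaller differences than the 5 higher ones, in the order Nav2, Tln2 and Psen2.

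Nav2 (chr7:48908716-49610090, plus strand) encodes neuron navigator 2, a large cytoskeleton-associated protein known for its part in neurite growth. Nav2 had 3033, 3594, 3101 and 2601 normalised counts in PXRKO atorvastatin libraries, against 3018, 2518, 2519 and 2579 in PXRKO vehicle libraries. In WT liver it had 1843, 2416, 1866 and 1598 in atorvastatin libraries, against 3392, 3018, 3118 and 3234 in vehicle libraries. The WT groups stood apart, with atorvastatin lower. In PXRKO liver 3 of 4 atorvastatin libraries were above the highest vehicle library, and library 4 fell inside the vehicle range. Group means gave log2 ratios of atorvastatin to vehicle of 0.21 ± 0.12 in PXRKO and −0.72 ± 0.13 in WT (SE, n = 4 and 4), and PXRKO minus WT was 0.94 ± 0.18. The predicted transcript Gm2788 shares 0.915% of the Nav2 exon length on the same strand.

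Psen2 (chr1:180227004-180263438, minus strand) encodes presenilin 2, a catalytic subunit of gamma-secretase, which cuts Notch and the amyloid precursor protein inside the membrane. Its E-box stretch and that of Tspan4 stand above, and the 2 genes moved in opposite directions with atorvastatin in WT. Normalised counts of Psen2 were 1712, 1420.2, 1570.1 and 1613 in PXRKO atorvastatin libraries, against 1542, 1583, 1388 and 1382 in PXRKO vehicle libraries. In WT mice they were 1206, 1185, 1252 and 1447 in atorvastatin libraries, against 1825, 1665, 1697 and 1856 in vehicle libraries. WT atorvastatin libraries were all below WT vehicle libraries. PXRKO atorvastatin libraries were spread across and above the vehicle range. The log2 ratio of atorvastatin to vehicle means was 0.10 ± 0.08 in PXRKO and −0.47 ± 0.08 in WT (SE, 4 and 4 libraries each), a PXRKO minus WT difference of 0.57 ± 0.11. It was the smallest difference of the 8, and the third of 324 relative to its standard error.

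Fosl2 (chr5:32135801-32157842, plus strand) encodes Fra-2, a Fos family member that pairs with Jun proteins to form AP-1. Fosl2 had 221, 219, 262 and 276 normalised counts in PXRKO atorvastatin libraries, against 308, 325, 269 and 341 in PXRKO vehicle libraries. In WT liver it had 393, 325, 281 and 484 in atorvastatin libraries, against 227, 206, 258 and 195 in vehicle libraries. WT atorvastatin was above WT vehicle in every library. In PXRKO liver 3 of 4 vehicle libraries were above all atorvastatin libraries, and vehicle library 3 fell inside the atorvastatin range. Atorvastatin over vehicle came to a log2 ratio of −0.35 ± 0.11 in PXRKO and 0.74 ± 0.19 in WT (SE, n = 4 and 4), and their difference, PXRKO minus WT, was −1.09 ± 0.22. Fosl2 had the fewest reads of the 8, between 108 and 564 raw counts in a library.

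Slc25a25 (chr2:32414487-32451445, minus strand) encodes a calcium-regulated mitochondrial carrier that exchanges ATP-Mg for phosphate, is known as a gene induced by fasting and cAMP, and is the one with the cAMP response element printed above. Normalised counts of Slc25a25 were 1039, 1875, 2076 and 1357 in PXRKO atorvastatin libraries, against 2050.4, 2284, 2711 and 2838 in PXRKO vehicle libraries. In WT mice they were 2186, 3151, 2470.2 and 3131 in atorvastatin libraries, against 1943, 2151, 1714 and 1301 in vehicle libraries. WT atorvastatin libraries were all above WT vehicle libraries, library 1 only narrowly. In PXRKO liver 3 of 4 vehicle libraries were above all atorvastatin libraries, and vehicle library 1 fell inside the atorvastatin range. Group means gave log2 ratios of atorvastatin to vehicle of −0.64 ± 0.24 in PXRKO and 0.62 ± 0.20 in WT (SE, n = 4 and 4), and PXRKO minus WT was −1.26 ± 0.31. The ratios in the 2 genotypes were close in size and opposite in sign. Naif1 on the other strand overlaps 4.82% of its exon length.

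**Figure D2:**
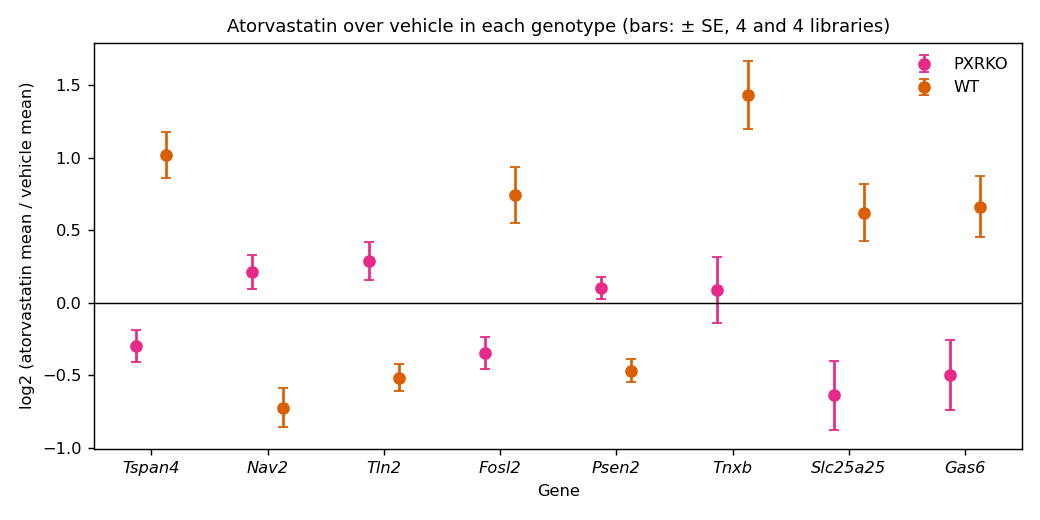
The log2 ratio of the atorvastatin mean to the vehicle mean (y axis) for each gene (x axis) in PXRKO (left point of each pair) and WT (right point), with SE bars from 4 and 4 libraries. PXRKO ratios run between −0.64 for Slc25a25 and 0.29 for Tln2, and WT ratios between −0.72 for Nav2 and 1.43 for Tnxb.

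The sizes of the 8 differences ran between 0.57 for Psen2 and 1.35 for Tnxb on the log2 scale, with a median of 1.13, against a median of 0.189 over the 324 genes. By size they ranked 10th (Tnxb), 11th (Tspan4), 13th (Slc25a25), 16th (Gas6), 20th (Fosl2), 27th (Nav2), 34th (Tln2) and 56th (Psen2). Relative to the standard error the ranks were 1 for Tspan4, 2 for Nav2, 3 for Psen2, 4 for Tln2, 5 for Fosl2, 8 for Tnxb, 9 for Slc25a25 and 15 for Gas6. By this measure Nav2, Tln2 and Psen2 stood ahead of Tnxb and Gas6, whose standard errors were larger. These ranks describe the choice of genes and support nothing further.

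**Figure D3:**
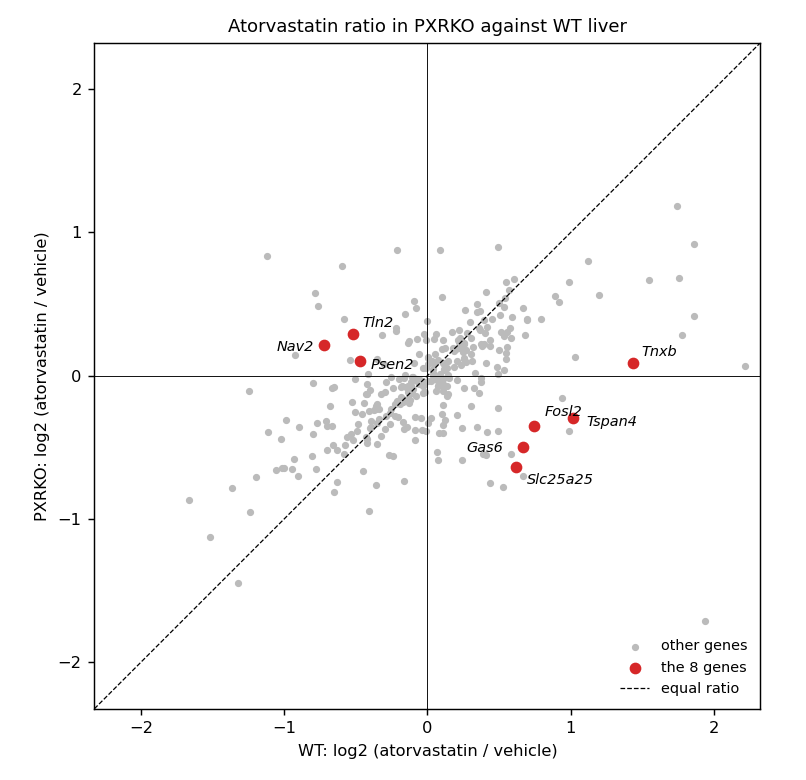
The log2 ratio of atorvastatin to vehicle in PXRKO liver (y axis) against that in WT liver (x axis) for 324 genes with values in all 4 groups, with the 8 genes in red and equal ratios on the dashed line. Nav2, Tln2 and Psen2 lie at the upper left, Tspan4, Fosl2, Gas6 and Slc25a25 at the lower right, and Tnxb just above the zero line of PXRKO at a WT ratio of 1.43.

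On vehicle, PXRKO libraries had no overlap with WT libraries for 5 of the 8 genes, against 49.7% of the 324 genes, above for Tnxb and Fosl2 and below for Nav2, Tln2 and Psen2. For Nav2 the highest PXRKO library was at 3017.98 and the lowest WT library at 3018.15. That gap is smaller than the 0.238% by which the scale between these groups varied, so Nav2 cannot be called apart. The Tnxb gap was also narrow, 300.8 against 299.4. In the authors' deposited table Tnxb and Fosl2 were called higher in PXRKO vehicle and Tln2 lower, 3 of 8, where 2.08% of the 14781 genes tested were called (1.17% higher and 0.907% lower). The PXRKO over WT vehicle log2 ratio was 0.81 ± 0.25 for Tnxb, 0.60 ± 0.25 for Gas6, 0.49 ± 0.12 for Fosl2, 0.48 ± 0.18 for Slc25a25 and 0.20 ± 0.12 for Tspan4 (SE, n = 4 and 4). It was −0.43 ± 0.09 for Tln2, −0.26 ± 0.07 for Nav2 and −0.26 ± 0.06 for Psen2. The WT atorvastatin ratios given above rest on the same WT vehicle libraries, and the difference that chose the genes contains all 4 groups, so the 2 sets of ratios are given side by side only.

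With atorvastatin in both genotypes, PXRKO libraries were all below WT libraries for Tspan4, Fosl2, Tnxb, Slc25a25 and Gas6 and all above them for Nav2, 6 of 8 genes without overlap, against 62.3% of the 324. Tln2 and Psen2 overlapped. The authors' deposited table called all 8, with 3 higher and 5 lower in PXRKO, where 9.35% of 14691 genes were called (4.25% higher and 5.1% lower). In the deposited tables of atorvastatin against vehicle, 0 of 8 were called in PXRKO, where 0.105% of 11445 genes were called (0.0437% higher and 0.0612% lower, 12 genes in all). In WT all 8 were called, 5 higher and 3 lower, where 9.57% of 13922 genes were called (5.47% higher and 4.1% lower). These calls use the groups that chose the genes, so nothing is read from the number of the 8 called. Nav2, Psen2 and Tnxb had PXRKO atorvastatin values only through the comparison of PXRKO with WT atorvastatin, whose listing was filtered on its own result. For PXRKO over WT atorvastatin, the log2 ratio ran between −1.12 ± 0.15 for Tspan4 and 0.67 ± 0.16 for Nav2 (SE). PXRKO atorvastatin and WT vehicle had libraries that overlapped for 7 of the 8 genes, while 54.9% of the 324 genes did not overlap between them. Tnxb, the one apart, had a log2 ratio of 0.90 ± 0.11. Both groups are among the 4 whose ratios chose the genes, so nothing is read from this overlap.

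PCN changed 6 of the 8 genes in WT liver, in a comparison outside the ratios that chose the genes. It shares their WT vehicle libraries and its outcome was known when the genes were chosen, so it is not independent of that choice. Tspan4, Tnxb and Slc25a25 rose, and Psen2, Tln2 and Nav2 fell, at an adjusted p of at most 0.05 over 12855 genes, of which 3.56% were called (1.91% higher and 1.65% lower). The PCN and vehicle libraries of these 6 genes did not overlap, which held for 11.5% of all genes tested. Without single libraries the number of genes called in all, 458, was 265, 293 and 287 (vehicle libraries 1, 2 and 3) and 222 and 263 (PCN libraries 2 and 4), and 4 to 6 of the 8 were past the threshold.

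Among the genes that rose, Tnxb had 583, 857, 414 and 814 normalised counts in PCN libraries, each above the highest of vehicle at 299 (log2 fold change 1.35, SE 0.20, n = 4 and 4, adjusted p = 0.00428, edgeR). Slc25a25 had 3021, 2526, 4101 and 3827 normalised counts in PCN libraries, against at most 2151 in vehicle libraries (log2 fold change 0.93, SE 0.17, n = 4 and 4, adjusted p = 0.0124, edgeR). Tspan4 had 641, 608, 543 and 741 normalised counts in PCN libraries, against at most 405 in vehicle libraries (log2 fold change 0.80, SE 0.11, n = 4 and 4, adjusted p = 0.00309, edgeR). Tnxb was the most variable of the 3 across PCN libraries, and Slc25a25 reached its highest group mean of the study here.

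Among the genes that fell, Psen2 had 1073, 1088, 1370.5 and 1306 normalised counts in PCN libraries, against at least 1665 in vehicle libraries (log2 fold change −0.54, SE 0.09, n = 4 and 4, adjusted p = 0.00897, edgeR). Tln2 had 421, 493, 498 and 454 normalised counts in PCN libraries, against at least 591 in vehicle libraries (log2 fold change −0.46, SE 0.09, n = 4 and 4, adjusted p = 0.0156, edgeR). Nav2 had 2282, 2769.5, 2440.4 and 1989 normalised counts in PCN libraries, against at least 3018 in vehicle libraries (log2 fold change −0.42, SE 0.10, n = 4 and 4, adjusted p = 0.0364, edgeR). The call of Nav2 was lost when any library other than PCN library 2 was left out, with adjusted p up to 0.0998, and that of Tln2 without PCN library 4 (adjusted p = 0.0538), by the same edgeR test.

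Fosl2 and Gas6 did not pass with PCN. Fosl2 had 306, 299.7, 164 and 251 normalised counts in PCN libraries, a spread that covers the vehicle values on both sides (log2 fold change 0.23, SE 0.17, n = 4 and 4, adjusted p = 0.4996, edgeR, 95% interval −0.14 to 0.61). Its log2 fold change was 0.13 without PCN library 1 and 0.39 without PCN library 3. Gas6 had 371, 361, 413 and 328 normalised counts in PCN libraries, and library 4 was inside the vehicle range (log2 fold change 0.29, SE 0.11, n = 4 and 4, adjusted p = 0.200, edgeR, 95% interval 0.04 to 0.53). PCN means were 255 ± 65.6 for Fosl2 and 368 ± 35.1 for Gas6, against WT vehicle means of 221 ± 27.9 and 303 ± 40.3 (SD, n = 4 each). Whether the PCN ratio differs from the WT atorvastatin ratio was not tested. Both ratios use the same vehicle libraries.

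**Figure D4:**
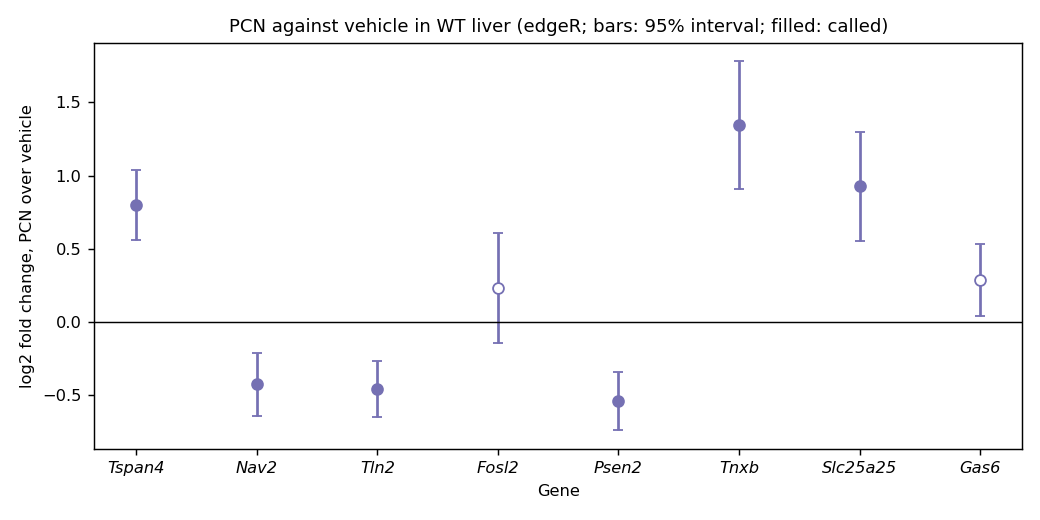
The log2 fold change of PCN over vehicle in WT liver (y axis) for each gene (x axis), from edgeR's fit to 4 and 4 libraries, with 95% intervals as bars and filled points for genes past an adjusted p of 0.05. The intervals of 6 genes lie clear of 0 and those genes were called, Fosl2's crosses 0, and Gas6's runs between 0.04 and 0.53 without the gene passing after adjustment.

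With pravastatin 0 of the 6 listed genes were past the authors' threshold, in a table where 0.191% of 14667 genes were called (0.0886% higher and 0.102% lower). Adjusted p ran between 0.145 for Psen2 and 0.732 for Nav2 in the authors' deposited table (DESeq2). Unadjusted p in that table ran between 0.000414 for Psen2 and 0.0182 for Nav2, but genes were listed there on this same comparison. All 6 ratios had the sign of the WT atorvastatin ratio, and whether pravastatin moved these genes less than atorvastatin was not tested. Psen2 had 1576, 1296, 1490.5 and 1371 normalised counts in pravastatin libraries, all below the lowest of vehicle at 1665, a log2 ratio of −0.30 ± 0.07 (SE, n = 4 and 4). The other 5 overlapped with vehicle, so 1 of 6 stood apart, against 32.7% of the 691 genes listed with pravastatin at a mean of at least 50 normalised counts, which were themselves selected on this comparison. Tnxb had 285, 671, 369 and 309.7 counts with pravastatin (mean 409 ± 178, SD, n = 4). Libraries 2, 3 and 4 were above the highest vehicle library at 299, library 2 by the widest margin. Log2 ratios of the remaining 4 were 0.41 ± 0.21 for Slc25a25, 0.34 ± 0.12 for Fosl2, −0.24 ± 0.10 for Nav2 and −0.24 ± 0.08 for Tln2. Pravastatin, PCN and atorvastatin are each set against the same 4 WT vehicle libraries.

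Ordered by group mean, most neighbouring groups overlapped. Means of Tspan4 were 342 in PXRKO atorvastatin, 420.1 in PXRKO vehicle, 741 in WT atorvastatin, 633 in PCN and 366 in WT vehicle, and the gap between PCN and PXRKO vehicle was the one place where neighbours in order did not overlap for any of the 8 genes. Means of Nav2 were 3082 ± 407 in PXRKO atorvastatin, 2658 ± 241 in PXRKO vehicle, 1931 ± 346 in WT atorvastatin, 2370.2 ± 325 in PCN, 2696 ± 362 in pravastatin and 3190.4 ± 161 in WT vehicle (SD, n = 4). WT vehicle was the highest group for Nav2, Tln2 and Psen2. WT atorvastatin was the highest for Tspan4, Fosl2, Tnxb and Gas6, and PCN for Slc25a25. WT vehicle was the lowest group for Fosl2, Tnxb and Gas6, PXRKO atorvastatin for Tspan4 and Slc25a25, WT atorvastatin for Nav2 and Tln2, and PCN for Psen2.

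Across the 16 libraries of the 4 vehicle and atorvastatin groups, the 5 genes higher with atorvastatin in WT and the 3 lower ones formed opposed profiles. Pearson's r of log2(normalised count + 1) was 0.30 to 0.80 over the 13 pairs of the same direction (median 0.66) and −0.88 to −0.43 over the 15 pairs of opposite direction (median −0.65). Taken as deviations from each group's mean, the medians were 0.18 and −0.11, so most of this likeness lay between groups. The libraries share size factors and the choice of the genes sets the group pattern, so r is a description over these libraries and carries no test.

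Among 287 other genes with values in the same 16 libraries, the gene closest to each was Itih4 for Gas6 (r = 0.86), Serpine2 for Tln2 (r = 0.83) and Nav2 (r = 0.82), Timp3 for Tnxb (r = 0.80), Insig1 for Tspan4 (r = 0.78), C4b for Fosl2 (r = 0.77), Steap4 for Slc25a25 (r = 0.74) and Ppp1r3c for Psen2 (r = 0.67). C4b encodes complement C4, Itih4 a secreted liver protein of the acute phase, Serpine2 a protease inhibitor, Timp3 a matrix metalloproteinase inhibitor, Insig1 a membrane protein that restrains the SREBP pathway of sterol synthesis, Steap4 a metalloreductase and Ppp1r3c a glycogen-targeting phosphatase subunit. The mean of the 8 standardised profiles, which mixes 5 genes of one direction and 3 of the other, was close to C4b (r = 0.70), Itih4 (0.68), Serpina3n (0.62) and Orm2 (0.59). The PXRKO minus WT difference was −1.37 ± 0.37 for Itih4, 1.25 ± 0.38 for Serpine2 and −0.88 ± 0.25 for C4b (SE).

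Family members of the 8 genes were counted in the PCN test (edgeR, adjusted p of 0.05), in lists written with earlier results of these data known. That test called 3.56% of all 12855 genes, a share at which lists this short would hold few calls. Nothing is therefore read from a member being the only gene called in its list. Of 19 tetraspanins tested, Tspan4 alone was called, of 14 gamma-secretase and Notch genes Psen2 alone by edgeR (DESeq2 also called Hes1, a Notch target, higher), of 22 matrix genes Tnxb alone, of 9 mitochondrial nucleotide and phosphate carriers Slc25a25 alone, and of 2 neuron navigators Nav2 alone. Among 23 genes of talin and integrin adhesion 3 fell: Tln2, Fermt2, which encodes the integrin activator kindlin-2 (log2 fold change −0.44), and Vcl, which encodes vinculin (−0.29), while DESeq2 also called Tns3, which encodes tensin 3, higher and 7 of the 23 were at an unadjusted p under 0.05. Of 10 AP-1 factors Jdp2 (−1.43) and Jund (−0.41) fell and 0 rose by edgeR, 5 of the 10 being at an unadjusted p under 0.05, while DESeq2 called 1 higher, Junb. Of 3 TAM receptors and ligands 0 were called by edgeR or DESeq2, and 2 were at an unadjusted p under 0.05, Gas6 and Mertk, a receptor of Gas6 (log2 fold change 0.27). Median log2 fold changes were −0.08 for tetraspanins, −0.23 for navigators, 0.27 for TAM genes, −0.10 for adhesion, 0.08 for gamma-secretase and Notch, 0.17 for matrix, 0.09 for the carriers and 0.13 for AP-1 factors, against −0.01 over all genes.

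Slc25a25 and Fosl2 also belong to a list of 24 genes of the fasting and cAMP response. With PCN, 2 of its 23 tested members rose, Slc25a25 and the cAMP-induced kinase Sik1 (log2 fold change 1.15), and 5 fell, the fasting-regulated genes Igfbp1 (−1.71), Fgf21 (−1.64), Tat (−1.02), Angptl4 (−0.94) and Klf15 (−0.49), with a list median of −0.30 (edgeR). DESeq2 called the same number higher and 8 lower, adding Cebpb, Creb3l3 and Gadd45b, and 13 of the 23 were at an unadjusted p under 0.05 by edgeR. In the authors' deposited tables the same list had 3 higher and 4 lower with atorvastatin in WT, 0 with atorvastatin in PXRKO, and 0 higher and 7 lower in PXRKO against WT atorvastatin, Slc25a25 and Fosl2 among the 7. Shares over all genes tested were 5.47% higher and 4.1% lower with atorvastatin in WT, and 0.105% with atorvastatin in PXRKO. In PXRKO against WT atorvastatin they were 4.25% higher and 5.1% lower. Nothing is read from the 0 in PXRKO, and Slc25a25 and Fosl2 were chosen on ratios of these groups. Of its genes with values in all 4 groups that are not described above, Per1, a clock gene that answers cAMP, had log2 ratios of −0.37 in PXRKO and 0.24 in WT, Cebpb −0.45 and −0.08, and Angptl4 −0.48 and −0.66.

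Among 18 PXR and CAR targets tested with PCN, Cyp3a44, Ces2a and Cyp3a11, enzymes of drug metabolism, rose (log2 fold change 1.54, 1.39 and 1.16), with a list median of 0.31, by edgeR. DESeq2 called 5 higher, adding Abcb1a and Cyp2c55, and 7 of the 18 were at an unadjusted p under 0.05 by edgeR. Cyp3a genes are near copies of one another, so their read counts are uncertain. Of 22 sterol synthesis genes, 0 were called with PCN by edgeR or DESeq2 (4 at an unadjusted p under 0.05), whereas the authors' deposited tables called 22 of 23 higher with atorvastatin in WT, 0 with atorvastatin in PXRKO and 22 lower in PXRKO against WT atorvastatin. Insig1, the gene whose profile was closest to Tspan4, is one of them, with log2 ratios of 0.13 in PXRKO and 1.03 in WT. For the families of the 8 genes, the deposited tables called with atorvastatin in WT 1 tetraspanin higher and 2 lower of 23 in the list, 2 and 4 of 29 of adhesion, 4 and 1 of 14 AP-1 factors, 3 and 1 of 18 of gamma-secretase and Notch, 4 and 0 of 24 matrix genes and 2 and 0 of 12 carriers, members included. Of all genes tested there, 5.47% were called higher and 4.1% lower. In PXRKO against WT atorvastatin 5.1% of all genes were called lower. With atorvastatin in PXRKO 0 of any family and 0 of the sterol list were called, where 0.105% of all genes were, so nothing is read from that 0.

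Markers of liver cell types were summed in PCN and vehicle, the 2 groups listed for nearly all genes. Hepatocyte markers summed to 761548 to 851804 normalised counts in PCN libraries, against 820549 to 921684 in vehicle libraries, and Kupffer cell markers to 1677 to 3802, against 2848 to 5087. Endothelial markers summed to 3601 to 5213 and 4275 to 4770, stellate cell markers to 4157 to 6243 and 4427 to 5539, cholangiocyte markers to 218 to 302 and 191 to 345, and lymphocyte markers to 147 to 296 and 197 to 394, in PCN and vehicle libraries. No listed marker had a group mean of 0 and all 6 pairs of ranges overlapped. Krt19 (2.38 ± 3.40), Cd79a (5.01 ± 4.60) and Ms4a1 (8.29 ± 7.23) were near the floor in PCN libraries (mean ± SD, n = 4). All 10 Kupffer cell markers had log2 fold changes below 0 with PCN (−0.54 to −0.28, median −0.44), against a median of −0.01 over all genes, with 0 called by edgeR or DESeq2 and 1 at an unadjusted p under 0.05. Of the markers tested with edgeR, Lrat of the stellate list rose with PCN, and 0 were called in the other 5 lists, where 4 markers in all were at an unadjusted p under 0.05 and DESeq2 called 1 hepatocyte marker lower. In the authors' deposited table of PXRKO against WT vehicle, 2 of 6 hepatocyte markers were called lower and 2 of 9 endothelial markers higher. The Kupffer cell, stellate cell, cholangiocyte and lymphocyte lists had 0 called there. Of all genes tested in that comparison, 0.907% were called lower and 1.17% higher. Genotype and experiment cannot be told apart in these calls. The part of cell type shares in the results for the 8 genes was not tested.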

How the data were processed

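Raw counts per gene were deposited beside DESeq2 statistics, in tables of 8 libraries. Reads were counted with HTSeq and tested with DESeq2 on build GRCm38, per the submitters' processing notes, and the versions, the aligner and the annotation are not given in the sources. The deposited baseMean is a mean signal, the average of counts over size factors. Except for PCN, the authors' log2 fold changes, p-values and adjusted p-values were used as deposited. For those comparisons the number of genes tested was taken from the ratio of adjusted to raw p-values. The authors' statistics for PCN against vehicle exist but were not used. Calls with PCN and calls in the other comparisons therefore come from different tests. The vehicle and PCN table lists 19650 genes, and each other table was filtered on its own statistics. Columns were mapped to groups by table name (88 columns in 11 tables, 0 unused), and library numbers are column order. Among the PCN and WT vehicle libraries, no 2 were copies (lowest chi-square per degree of freedom 8.00). Libraries of the other groups were not compared in this way.

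Genes were joined by symbol and coordinates, which equal GENCODE M21 for the 8 genes. Size factors were recovered from baseMean by least squares (to within 0.0334% on simulated counts), and tables were joined through shared groups, whose ratios varied by at most 0.409%. Standard errors of log2 ratios of means come from the delta method. PCN against vehicle was tested with edgeR 4.0.16 (TMM, filterByExpr, quasi-likelihood F test, Benjamini-Hochberg over 12855 genes) in R 4.3.3, checked on simulated counts, with DESeq2 1.42.0 as an alternative. Rows with no symbol (441, 4.86% of counts) were left out. Python 3.11.15, numpy 2.4.6 and matplotlib 3.10.9 were used otherwise.

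The 8 genes and all gene lists were chosen with earlier results of these data known. Also named were Nr1i2, the gene of highest correlation with each of the 8 and the 5 closest to their mean profile (1 of them is not reported here), and from the lists genes called with PCN and up to 3 of highest mean with values in all 4 groups. Outside this rule, Mertk and the list genes called by DESeq2 only were chosen after their values were seen.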

Additional observations from a re-analysis of the deposited data

Results flagged for a closer look

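For 4 genes every PXRKO atorvastatin library lay on one side of the PXRKO vehicle mean and every WT atorvastatin library on the other side of the WT vehicle mean, a difference that was used to choose the genes and was not tested: the PXRKO minus WT difference in log2 ratio was −1.32 for Tspan4, −1.26 for Slc25a25, −1.16 for Gas6 and −1.09 for Fosl2.

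In 3 of the 46 sets of 4 libraries, 1 library stood apart from the other 3 by more than Dixon's 95% critical value for a gap relative to the range, which chance gives in about 1 of 20 sets. Nav2 had 3018 normalised counts in PXRKO vehicle library 1, against 2518 to 2579 in the other 3. Gas6 had 382 in PXRKO atorvastatin library 4, against 299.5 to 311 in the other 3. Gas6 also had 667 in WT atorvastatin library 4, against 404 to 433 in the other 3.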

How the results depend on the processing

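All 8 genotype differences kept their sign, and moved by less than the spread between libraries, in each of the 157 values from other settings. These were the scale set through the atorvastatin tables, the mean of log2(normalised count + 1), the median of libraries, ratios taken within 1 table (possible for the 5 genes that the PXRKO table lists) and each library left out. Leaving out 1 of 4 libraries cannot move a difference by that spread, and each difference was larger than the spread. For the settings with a library left out, this outcome was therefore fixed in advance and supports nothing. With single libraries left out the differences ran −1.39 to −1.18 for Tspan4, 0.86 to 1.06 for Nav2, 0.71 to 0.89 for Tln2, −1.20 to −0.94 for Fosl2, 0.53 to 0.64 for Psen2, −1.51 to −1.12 for Tnxb, −1.42 to −1.10 for Slc25a25 and −1.30 to −0.93 for Gas6. With PCN, edgeR called 458 genes (246 higher, 212 lower), DESeq2 776 (422 higher, 354 lower), and edgeR without single libraries 222 to 487 (114 to 281 higher, 108 to 206 lower). DESeq2, median-ratio scaling and no filter each called 6 of the 8 genes, and single libraries left out gave 4 to 6, with Nav2 (adjusted p 0.00273 to 0.0998 over all settings) and Tln2 (0.000716 to 0.0538) as the ones lost; the cause was not tested. Fosl2 and Gas6 passed under none of the 11 settings. No paired analysis was possible because the count columns carry no replicate number shared between groups. With 4 libraries a group, changes smaller than the spread between animals could not be resolved, and pravastatin depth is known only as a size factor.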
